A study of Mus musculus with 23 samples.

Results

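Transcripts of 10 enzymes of de novo nucleotide synthesis were followed across 8 groups of cultured mouse CD4+ T cells. The genes were taken by name, whatever their values: Ppat, Gart, Pfas, Paics, Adsl, Atic and Impdh2 for purines, and Cad, Dhodh and Umps for pyrimidines. They are 10 of 53379 gene IDs in the deposited count table, and all 10 were among the 16882 genes that passed the filter on low counts. Averaged over the other conditions, stimulation through CD3 and CD28 raised all 10 transcripts, by 1.30-fold (Gart) to 3.34-fold (Impdh2). For niacin no member was called in edgeR's test, the main one used here, and with voom Impdh2 alone was called, in stimulated cells.

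De novo synthesis builds the purine ring on phosphoribosyl pyrophosphate (PRPP) until inosine monophosphate (IMP) is made, from which AMP and GMP branch. Pyrimidine synthesis first closes the ring as orotate and then attaches it to PRPP to give UMP. Resting T cells get by largely on salvage of bases and nucleosides, whereas dividing T cells draw on both de novo pathways, and inhibitors of IMP dehydrogenase and of dihydroorotate dehydrogenase are used as immunosuppressants.

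The cells were splenic T cells of C57BL/6 mice, sorted as CD45+CD3+CD4+CD8- and cultured for 72 h. Every culture, the controls included, received IL-2 at 30 IU/ml. Stimulated cells received anti-CD3/CD28 as well, unstimulated cells IL-2 alone, and each was kept with 5 mM niacin or without it. Cells were labelled Gpr109a-/- (knockout) or wild type. The niacin receptor gene stands in the count table under its present symbol, Hcar2. Ordered in this way the groups were stimulated knockout-labelled cells with and without niacin, stimulated wild-type-labelled cells with and without niacin, and the same 4 unstimulated. Each held 3 libraries, apart from 2 (numbers 2 and 3) of unstimulated knockout-labelled cells with niacin, which makes 23. The sources used here do not give the animals' ages and numbers or the extent of the Hcar2 deletion.

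Hcar2 counts went against the genotype labels. The knockout-labelled libraries held 16, 8 and 18 counts stimulated with niacin, 4, 0 and 13 stimulated, 32 and 28 unstimulated with niacin, and 17, 26 and 7 unstimulated. Of the 12 wild-type-labelled libraries, 1 held a single count and the others none. Directions by genotype are therefore those of the labels throughout.

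Total counts per library were 20604050 to 30090018, save in the third library of unstimulated knockout-labelled cells without niacin, which held 13205565. That library also stood apart in composition, with the lowest TMM scaling factor, 0.885, beside 1.09 and 1.11 in libraries 1 and 2 of its group. The 10 enzymes together took 0.0631% to 0.174% of a library's counts. The 6 T cell markers (Cd3d, Cd3e, Cd3g, Cd4, Trac, Cd28) were detected in every group, at a summed 2060 to 3750 CPM (counts scaled to a common library size). The CD8 markers summed to 7.88 to 29.2 CPM, the 5 B cell markers to 1.06 to 8.62 CPM, the 7 myeloid and dendritic markers to 0.127 to 7.99 CPM, and the 6 erythroid and platelet markers to 0 to 5.82 CPM. The 4 NK markers summed to 72.5 to 109 CPM in stimulated and 10.9 to 40.6 CPM in unstimulated libraries. Most of that was Eomes, whereas Ncr1 and Klrb1c were at 0 in some libraries and reached at most 5.68 and 13.6 CPM. The part of NK cells in the stimulation results was not tested. In such bulk libraries a change in the share of a cell type and a change in RNA per cell cannot be told apart.

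The upstream sequences of the members are shown first, because 3 of them share the E-box letters CACGTG, the core that MYC-family proteins are known to bind. RefSeq windows (build GRCm38.p6, 250 bases before to 50 after the start) matched 8 of the 10 members; Dhodh and Pfas had none. CACGTG, which reads the same on both strands, stood in 3 of the 8 windows (Paics, Atic and Impdh2), against 7.15% of all 32851 windows. GGGCGG or its complement stood in 8 of 8 (35.7% of all windows) and CCAAT or its complement in 4 of 8 (Gart, Paics, Atic and Impdh2, 37.4% of all windows). Within the Atic window, 2 matches of CCGCCC overlap by 1 base. A match describes the letters and is no evidence of binding. Capitals mark CACGTG in 3 windows of 30 bases, given in the direction of transcription on the plus strand. The motif ended 197 bases before the start in Paics (chr5:76951087-76951116), 1 base before it in Atic (chr1:71557137-71557166) and 104 bases before it in Impdh2 (chr9:108560314-108560343), where the deposited table already lists an exon of Impdh2. The Paics site also lies within the listed span of Ppat, which is on the other strand (chr5:76913249-76951578).
Paics: cgcctcggaaagCACGTGgagggacctgct
Atic: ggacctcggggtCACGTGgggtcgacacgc
Impdh2: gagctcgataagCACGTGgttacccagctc

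Longer stretches are given for the same Atic and Impdh2 promoters, cut before the first exon base that the deposited table lists. Both lie on the plus strand, and capitals mark GGGCGG or CCAAT on either strand. Impdh2, the member with the widest response, has 1 GGGCGG here (chr9:108560186-108560285). Atic has several, with CCAAT farther out (chr1:71556906-71557149).
Impdh2: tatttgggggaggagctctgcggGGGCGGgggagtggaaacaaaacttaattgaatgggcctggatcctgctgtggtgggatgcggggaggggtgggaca
Atic: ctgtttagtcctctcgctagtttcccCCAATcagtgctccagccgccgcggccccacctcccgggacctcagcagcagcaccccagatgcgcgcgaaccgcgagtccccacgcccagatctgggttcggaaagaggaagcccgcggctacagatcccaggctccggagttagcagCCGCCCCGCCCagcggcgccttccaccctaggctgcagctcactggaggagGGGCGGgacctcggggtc

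Levels of different genes are set side by side only as mean CPM per kilobase of exon. On that scale the purine enzyme Paics was the most abundant member, at 103 in stimulated and 48.8 in unstimulated cells, and Pfas the least, at 4.11 and 2.15. Impdh2 stood at 60.7 in stimulated and 18.2 in unstimulated cells, which placed it above 93.1% and 81% of the genes tested. Gart stood at 45.4 and 34.7, Adsl at 41.1 and 25.8, and Umps at 36.5 and 18.7. The remaining values were 22.2 and 14.7 for Ppat, 21.8 and 14.5 for Cad, 10.3 and 6.10 for Atic, and 8.47 and 5.97 for Dhodh. Every member was therefore well detected in both states, and CPM levels within a gene are used from here on.

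**Figure D1:**
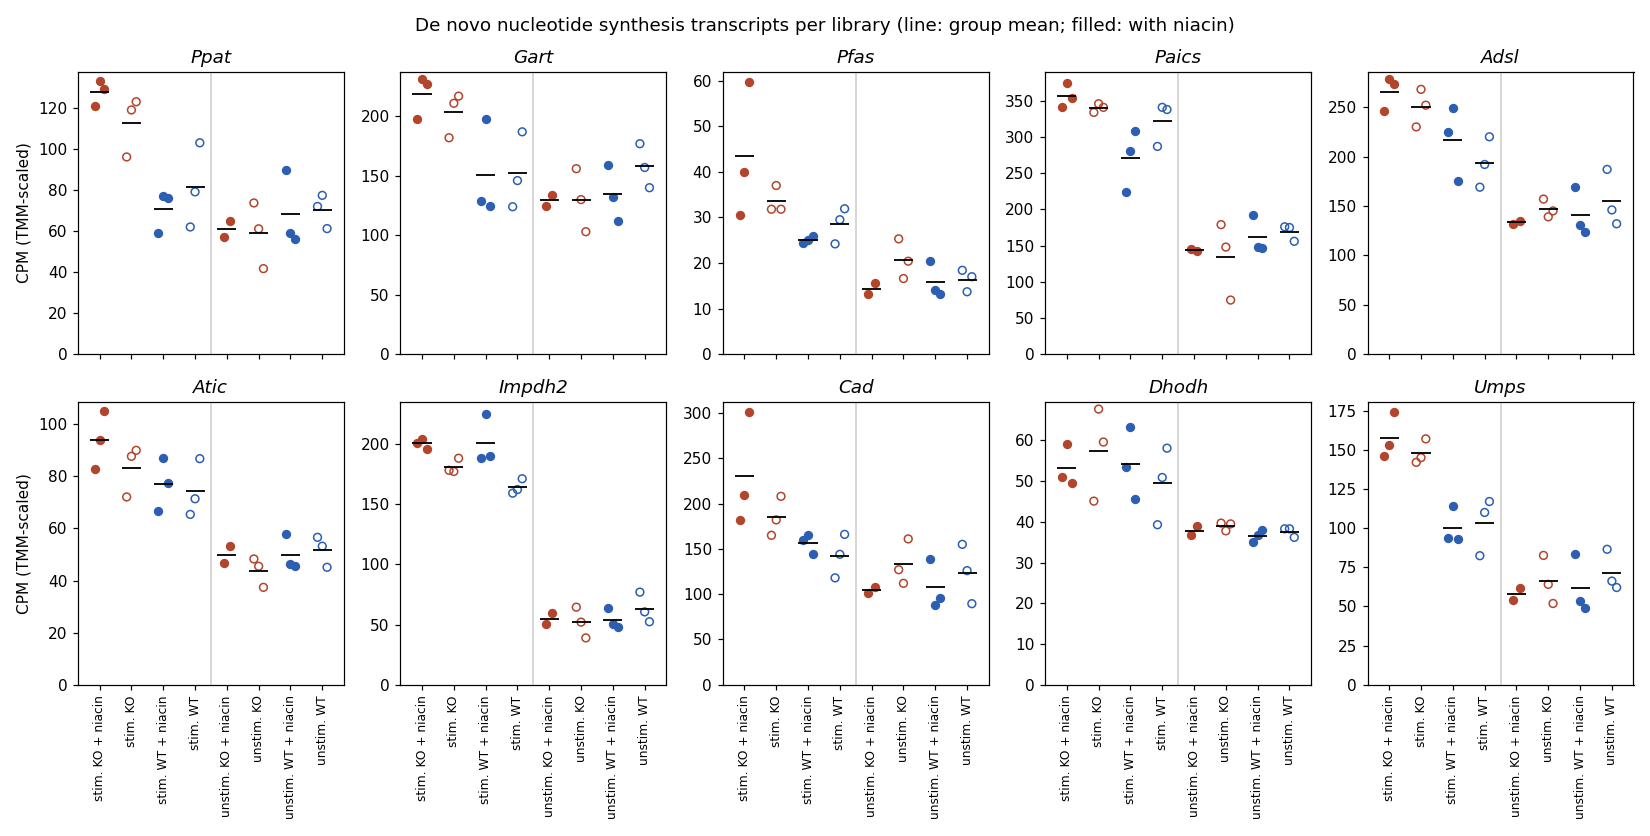
Normalised level of each enzyme (y axis, CPM scaled by TMM factors, from 0) in each of the 23 libraries (points), by group (x axis), with group means as lines, filled points for niacin, red for the knockout and blue for the wild-type label. Stimulated groups stand left of the grey line and lie above all unstimulated libraries for Impdh2, Paics and Atic. The share of all genes apart in this way was not computed.

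What CD3 and CD28 engagement did to these transcripts, beside IL-2 alone, was read within each label and niacin condition. In edgeR's quasi-likelihood test, at a Benjamini-Hochberg adjusted p under 0.05, stimulation raised 10 of 10 members in knockout-labelled cells with niacin, where 24.5% of all genes tested were called higher. Without niacin it raised 9 of 10 in knockout-labelled cells (25.2% of all genes). In wild-type-labelled cells it raised 8 of 10 with niacin (26% of all genes) and 5 of 10 without (23.4% of all genes). No member was called lower in these comparisons, where 25.3%, 27.5%, 26.6% and 21.7% of all genes were, in the same order of groups. In wild-type-labelled cells voom called 9 members higher with niacin (33.2% of all genes) and 7 without (29% of all genes). The members' median log2 fold change was 1.11, 0.85, 0.62 and 0.46 in that order, beside medians over all genes of -0.07, -0.13, -0.10 and -0.07. The unstimulated group behind 1.11 had no library 1, which had the highest mean level of the members in each other unstimulated group. The part of this in the order of the medians was not tested. Averaged over the 4 backgrounds, all 10 were called higher (35.3% of all genes were called higher and 40.8% lower), with a median of 0.71 beside -0.11 over all genes. The labels do not say whether the libraries of a group came from separate animals, so the p-values cover the spread among these libraries, which may be technical.

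**Figure D2:**
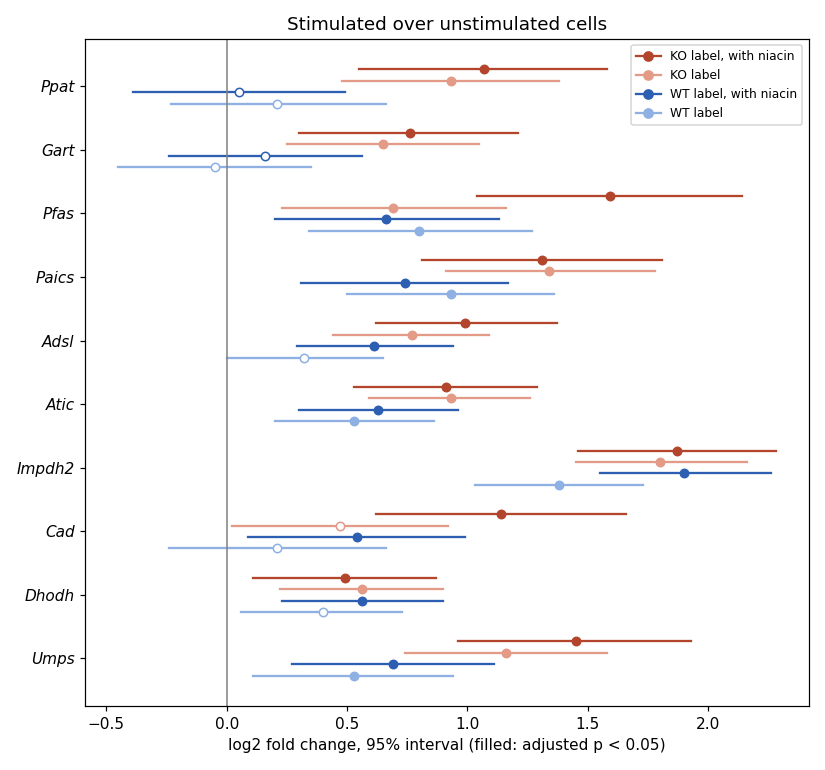
Log2 fold change of stimulated over unstimulated cells (x axis) for each enzyme (y axis) in the 4 backgrounds (colours), with 95% intervals as lines and filled points where the adjusted p was under 0.05. Impdh2 lies farthest right in each background, at 1.38 to 1.90, and the Ppat and Gart intervals of wild-type-labelled cells span 0.

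Impdh2, on chromosome 9 at 108560286 to 108565584 (ENSMUSG00000062867, plus strand), encodes the IMP dehydrogenase that commits IMP to GMP. Stimulated libraries held 201, 204 and 196 CPM in knockout-labelled cells with niacin, 178, 177 and 188 without it, 188, 225 and 190 in wild-type-labelled cells with niacin and 159, 162 and 171 without it. Unstimulated libraries held 50.3 and 59.3, then 64.4, 52 and 38.9, then 63.7, 50.2 and 47.6, and then 76.9, 60.5 and 52.3 CPM in the same 4 backgrounds. No libraries overlapped, with the lowest stimulated one at 159 and the highest unstimulated one at 76.9 CPM. The share of all genes apart over all 23 libraries, as Impdh2, Paics and Atic were, was not computed. Within single backgrounds 27.8% to 35.4% of all genes were apart with stimulation higher. The average log2 fold change was 1.74 ± 0.09 (SE, edgeR adjusted p = 4.64e-13), and 1735 of the 16882 genes tested rose by more. By background it was 1.87 ± 0.20, 1.80 ± 0.17, 1.90 ± 0.17 and 1.38 ± 0.17 in the order given. A processed copy, Impdh2-ps, is 99.7% identical over 1545 aligned bases and held 1501 counts, 2.15% of the counts of both, so counts could be split between them. The sum of both averaged 205 ± 4.28 CPM in stimulated and 56 ± 6.56 CPM in unstimulated knockout-labelled cells with niacin (SD, n = 3 and 2), beside 200 and 54.8 CPM for Impdh2 alone.

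Impdh1 encodes the other IMP dehydrogenase. It was called higher too, by 0.86 ± 0.09 on the log2 scale (edgeR adjusted p = 1.43e-08). In wild-type-labelled cells without niacin it stood at 95.9 CPM per kilobase stimulated and 55.1 unstimulated, and in knockout-labelled cells without niacin at 90.1 stimulated and 61.1 unstimulated. Impdh1 thus kept the higher level per length in both states, and the difference between the responses of the 2 genes was not tested.

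Paics, on chromosome 5 at 76951307 to 76967509 (ENSMUSG00000029247, plus strand), encodes a bifunctional enzyme of the middle of the purine pathway. Stimulated libraries held 342, 375 and 354 CPM in knockout-labelled cells with niacin, 334, 346 and 341 without it, 224, 281 and 308 in wild-type-labelled cells with niacin and 287, 341 and 338 without it. Unstimulated libraries held 145 and 143, then 179, 148 and 74.8, then 192, 148 and 147, and then 176, 175 and 156 CPM in the same backgrounds. No stimulated library overlapped an unstimulated one, and the value of 74.8 CPM is that of the library with the lowest total. On average the log2 fold change was 1.08 ± 0.11 (edgeR adjusted p = 1.36e-08).

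Ppat, the PRPP amidotransferase of the committed first step, lies head to head with Paics on the minus strand of chromosome 5, at 76913249 to 76951578 (ENSMUSG00000029246). Their listed exons share 272 bases, 6.15% of those of Ppat and 8.67% of those of Paics, and the sources used here do not say whether the counting used strand. Stimulated libraries held 121, 133 and 129 CPM in knockout-labelled cells with niacin, 96.1, 119 and 123 without it, 59.3, 77 and 75.9 in wild-type-labelled cells with niacin and 62, 79.1 and 103 without it. Unstimulated libraries held 57 and 65, then 73.7, 61.1 and 41.7, then 89.9, 59.1 and 56.2, and then 72, 77.4 and 61.2 CPM. Stimulated and unstimulated libraries were apart in the knockout-labelled cells and overlapped in the wild-type-labelled cells. Its log2 fold change was 1.07 ± 0.25 and 0.93 ± 0.21 in knockout-labelled cells with and without niacin (edgeR adjusted p = 0.00133 and 0.00118). In wild-type-labelled cells it was 0.05 ± 0.21 and 0.21 ± 0.21 (adjusted p = 0.859 and 0.426). Paics, its neighbour, was called higher in both, by 0.74 ± 0.21 and 0.93 ± 0.21 (adjusted p = 0.00515 and 0.00106). The difference between the 2 genes was not tested.

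Gart, on chromosome 16 at 91621186 to 91646952 (ENSMUSG00000022962), encodes the trifunctional enzyme that follows Ppat. Its 12 stimulated libraries ran from 124 to 231 CPM with a median of 192, and its 11 unstimulated libraries from 103 to 177 with a median of 134. Of the unstimulated libraries, 9 lay above the lowest stimulated one, the widest overlap among the members. It was called higher in knockout-labelled cells, by 0.76 ± 0.22 with niacin and 0.65 ± 0.19 without. It was not called with the wild-type label, at 0.16 ± 0.19 and -0.05 ± 0.19 (edgeR adjusted p = 0.485 and 0.841). With niacin, voom gave 0.33 there and called it (adjusted p = 0.0441), and edgeR gave -0.08 without library 2 of the stimulated cells. Exons of Gm15964 on the other strand cover 16.9% of its exon bases.

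Pfas, on chromosome 11 at 68985697 to 69008460 (ENSMUSG00000020899), encodes the amidotransferase after Gart, and ran from 24.2 to 59.6 CPM stimulated (median 31.2) and from 13.1 to 25.3 unstimulated (median 16.6). The highest value, 59.6, belonged to library 3 of the stimulated knockout-labelled cells with niacin, whose other libraries held 30.6 and 40 CPM. It was called higher in all 4 backgrounds, by 1.59 ± 0.26 and 0.69 ± 0.22 in knockout-labelled cells with and without niacin and by 0.66 ± 0.22 and 0.80 ± 0.22 in wild-type-labelled cells. In knockout-labelled cells without niacin the call was lost without library 2 of either state (edgeR adjusted p = 0.0509 and 0.0703). In wild-type-labelled cells with niacin it was lost without library 2 or 3 of the unstimulated cells (adjusted p = 0.0725 and 0.0854). A single unstimulated library reached above the lowest stimulated one.

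Adsl, on chromosome 15 at 80948490 to 80970947 (ENSMUSG00000022407), encodes adenylosuccinate lyase, which serves both IMP and AMP synthesis. It ran from 169 to 278 CPM stimulated (median 238) and from 124 to 187 unstimulated (median 139). Stimulation raised it in 3 backgrounds, by 0.99 ± 0.18 and 0.77 ± 0.16 in knockout-labelled cells with and without niacin and by 0.61 ± 0.16 in wild-type-labelled cells with niacin. Without niacin the wild-type-labelled value was 0.32 ± 0.16 (edgeR adjusted p = 0.0959).

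Atic, on chromosome 1 at 71557150 to 71579631 (ENSMUSG00000026192), encodes the enzyme that closes the purine ring. Stimulated libraries ran from 65.4 to 105 CPM (median 84.8) and unstimulated ones from 37.4 to 57.9 (median 46.6), with no overlap. It was called higher in all 4 backgrounds, by 0.91 ± 0.18 and 0.93 ± 0.16 in knockout-labelled cells with and without niacin and by 0.63 ± 0.16 and 0.53 ± 0.16 in wild-type-labelled cells.

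Cad opens pyrimidine synthesis as a trifunctional enzyme and lies on chromosome 5 at 31054780 to 31078479 (ENSMUSG00000013629). It ran from 118 to 301 CPM stimulated (median 166) and from 88.4 to 161 unstimulated (median 112), with 5 unstimulated libraries above the lowest stimulated one. With niacin it was called higher, by 1.14 ± 0.25 with the knockout label and 0.54 ± 0.22 with the wild-type label (edgeR adjusted p = 0.000841 and 0.0412). The wild-type-labelled call was lost with RLE factors (edgeR adjusted p = 0.0555). It was also lost without library 1 or 2 of the stimulated or library 2 or 3 of the unstimulated cells (edgeR adjusted p = 0.0859 to 0.167). Without niacin the values were 0.47 ± 0.22 and 0.21 ± 0.22 (adjusted p = 0.0706 and 0.447).

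Dhodh, on chromosome 8 at 109591343 to 109608673 (ENSMUSG00000031730), encodes the mitochondrial enzyme that makes orotate. Unstimulated libraries were tightly grouped, at 35.1 to 39.7 CPM (median 38), and stimulated ones ran from 39.3 to 67.7 (median 52.2). It was called higher by 0.49 ± 0.18 and 0.56 ± 0.16 in knockout-labelled cells with and without niacin and by 0.56 ± 0.16 in wild-type-labelled cells with niacin. The knockout-labelled call with niacin was lost with RLE factors and with no filter (edgeR adjusted p = 0.0645 and 0.196). It was also lost without library 2 of the stimulated cells (adjusted p = 0.101). Without niacin the knockout-labelled call was lost with the compared groups alone and without library 2 of the stimulated cells (adjusted p = 0.0774 and 0.052). In wild-type-labelled cells without niacin the libraries did not overlap (39.3, 50.9 and 58.1 stimulated, 38.3, 38.3 and 36.2 unstimulated). The value there of 0.40 ± 0.16 missed the threshold in edgeR (adjusted p = 0.0518), while voom gave 0.39 and called it (adjusted p = 0.026).

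Umps, on chromosome 16 at 33954782 to 33967038 (ENSMUSG00000022814), encodes the bifunctional enzyme that turns orotate into UMP. It ran from 82.4 to 174 CPM stimulated (median 130) and from 49 to 86.5 unstimulated (median 62.1). Stimulation raised it in all 4 backgrounds, by 1.45 ± 0.23 and 1.16 ± 0.20 in knockout-labelled cells with and without niacin and by 0.69 ± 0.20 and 0.53 ± 0.20 in wild-type-labelled cells. The wild-type-labelled call without niacin was lost without library 2 or 3 of either state (edgeR adjusted p = 0.092 to 0.14). Of the 3 pyrimidine enzymes Umps had the largest average response, at 0.96 ± 0.10, beside 0.59 ± 0.11 for Cad and 0.50 ± 0.08 for Dhodh.

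Some calls in wild-type-labelled cells changed when libraries were left out. The shares of all genes called in these fits are not given here. With niacin, mitochondrial genes took 0.187% and 0.216% of libraries 1 and 2 of the stimulated cells, beside 0.605% of library 3. Without those low ones that group held 1 library, which was assumed to vary like the other groups, and 3 members were called (Paics, Atic and Impdh2). Of the 5 whose call was lost, Pfas kept a value of 0.69 and Umps of 0.56, while Cad stood at 0.40, Dhodh at 0.30 and Adsl at 0.29. Without niacin, 3 members were called when library 3 of the stimulated or of the unstimulated cells was left out, with Umps and Atic lost. Umps was also lost without library 2 of either state.

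The genotype comparisons ask whether cells labelled Gpr109a-/- differed from wild-type-labelled cells. No member was called in unstimulated cells with or without niacin, where 0.0296% and 0.0355% of all genes were called higher and 0.00592% lower in each, and edgeR found none there at an unadjusted p under 0.05; DESeq2 and voom called none. In stimulated cells without niacin all 10 log2 fold changes of knockout over wild-type label were positive, at 0.08 to 0.52. None was called by edgeR, DESeq2 or voom (0.0474% of all genes were called higher and 0.0652% lower), and 4 had an unadjusted edgeR p under 0.05 (Umps, Adsl, Ppat and Gart), as had 2.85% of all genes in that direction.

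In stimulated cells with niacin edgeR called Ppat higher in knockout-labelled cells and no other member, where 0.575% of all genes were called higher and 0.865% lower. Its 121, 133 and 129 CPM in knockout-labelled libraries stood against 59.3, 77 and 75.9 in wild-type-labelled libraries, a log2 fold change of 0.85 ± 0.21 (edgeR adjusted p = 0.0487). For 6 of the 10 members all knockout-labelled libraries lay above all wild-type-labelled ones, as they did for 12.5% of all genes. The next largest values were Pfas at 0.79 ± 0.22, Umps at 0.66 ± 0.20, Cad at 0.56 ± 0.22 and Gart at 0.54 ± 0.19 (adjusted p = 0.07 to 0.163). Impdh2 and Dhodh were close to 0, at -0.01 ± 0.16 and -0.02 ± 0.16. DESeq2 called 3 members higher (3.02% of all genes) and voom 4 (11.1% of all genes). The Ppat call was lost in 17 of the 23 fits that left out 1 library (adjusted p up to 0.239), with log2 fold changes of 0.74 to 0.92. Without the wild-type-labelled libraries 1 and 2 with the low mitochondrial share, a single library was left with that label, assumed to vary like the other groups, and the value was 0.72 (adjusted p = 0.536).

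Whether stimulation acted differently by label was tested as the difference of the effects, averaged over niacin. All 10 differences, knockout minus wild-type label, were positive, with a median of 0.42 beside -0.03 over all genes. These values share their stimulated libraries with the genotype comparisons above. EdgeR called none (0% of all genes were called higher and 0.077% lower), 5 had an unadjusted p under 0.05 (8.59% of all genes in that direction), DESeq2 called 3 (1.67% of all genes) and voom 2 (5.57% of all genes). The largest were Ppat at 0.87 ± 0.22 (adjusted p = 0.0887), Umps at 0.69 ± 0.21 (adjusted p = 0.116) and Gart at 0.65 ± 0.20 (adjusted p = 0.12). Without library 1 of unstimulated knockout-labelled cells without niacin, these 3 values were 0.96, 0.79 and 0.72. EdgeR then called them (adjusted p = 0.0345, 0.0396 and 0.0472), so the calls depended on that library. The share of all genes called in that fit is not given here. Impdh2 differed least but for Dhodh, at 0.20 ± 0.17 and 0.05 ± 0.17. Averaged over the 4 conditions, no member was called between the labels (0.101% of all genes called higher, 0.225% lower); 3 had an unadjusted p under 0.05 (3.73% of all genes in that direction), DESeq2 called 0 and voom 2 (2.23% of all genes).

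The niacin comparisons ask what 5 mM niacin did to the same transcripts. EdgeR called no member in any of the 4 backgrounds, none had an unadjusted p under 0.05, and DESeq2 called none. Across all genes 0.00592% were called higher in stimulated knockout-labelled cells, 0% in the other backgrounds and 0% lower in all 4. Averaged over the backgrounds the log2 fold changes lay between -0.10 (Pfas) and 0.09 (Atic), where 0.0178% of all genes were called higher and 0.136% lower. Averaged over the labels alone, edgeR and DESeq2 called no member in stimulated cells (0.0237% of all genes higher, 0.0711% lower) or in unstimulated cells (0.00592% higher, 0.0889% lower). None had an unadjusted p under 0.05, and voom called Impdh2 in stimulated cells (0.25, adjusted p = 0.0463), with 2.41% of all genes called higher. The widest of the 95% intervals over all 4 backgrounds, that of Pfas, ran from -0.34 to 0.14. Within single backgrounds the values ran from -0.52 (Pfas, unstimulated knockout-labelled cells) to 0.37 (Pfas, stimulated knockout-labelled cells).

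Impdh2 was the member whose niacin and control libraries were apart in both stimulated backgrounds. Taking each background alone, 7.41% of all genes were apart with niacin higher in wild-type-labelled and 7% in knockout-labelled cells. The share of genes apart in both was not computed. In wild-type-labelled cells Impdh2 held 188, 225 and 190 CPM with niacin and 159, 162 and 171 without. In knockout-labelled cells it held 201, 204 and 196 with niacin and 178, 177 and 188 without. The log2 fold changes of 0.29 ± 0.17 and 0.15 ± 0.16 were not called (edgeR adjusted p = 0.558 and 1). With voom and sample quality weights the wild-type-labelled value was 0.35 (adjusted p = 0.0475), the 1 call of a member by voom in these 4 comparisons, where 3.65% of all genes were called higher. Cad, Pfas and Adsl had libraries apart with niacin lower in unstimulated knockout-labelled cells, where niacin had 2 libraries. The share of all genes under that rule was not computed. Cad gave the largest difference between the niacin effect in stimulated and in unstimulated cells, 0.50 ± 0.22, which was not called (unadjusted p = 0.0354, edgeR adjusted p = 0.413). No member was called by edgeR, DESeq2 or voom for a niacin effect that differed by label. Of all genes, edgeR called 0% higher and 0% lower there, DESeq2 0.0118% higher and voom 0% higher. At an unadjusted edgeR p under 0.05 there were 0 members, beside 1.5% of all genes in the higher direction.

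**Figure D3:**
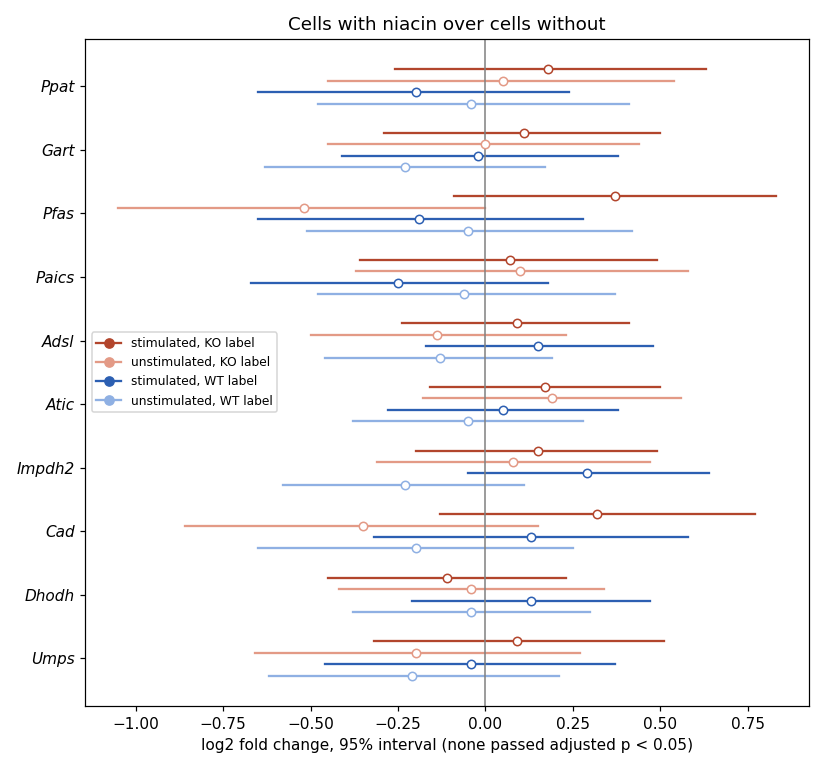
Log2 fold change of cells with over cells without niacin (x axis) for each enzyme (y axis), in 4 backgrounds (colours), with 95% intervals as lines. All points are open, none having passed an adjusted p of 0.05, and they lie between -0.52 and 0.37.

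The 10 transcripts varied together over the 23 libraries. Between pairs of members Pearson's r of log2 CPM ran from 0.637 to 0.962 with a median of 0.84, as a description over libraries that share the stimulation contrast. With the group means taken off, the 45 pairs ran from -0.0309 (Cad with Paics) to 0.895 (Ppat with Atic) with a median of 0.599. The members' mean centred log2 CPM followed that of 15 proliferation genes, with r = 0.957 over libraries and 0.763 with group means off. All 15 proliferation genes were called higher on average stimulation, with a median of 1.48, and their part in the members' response was not tested. Library size moved with the members as well, with r = 0.57 and 0.439, and the mitochondrial share less, with r = -0.485 and -0.131.

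**Figure D4:**
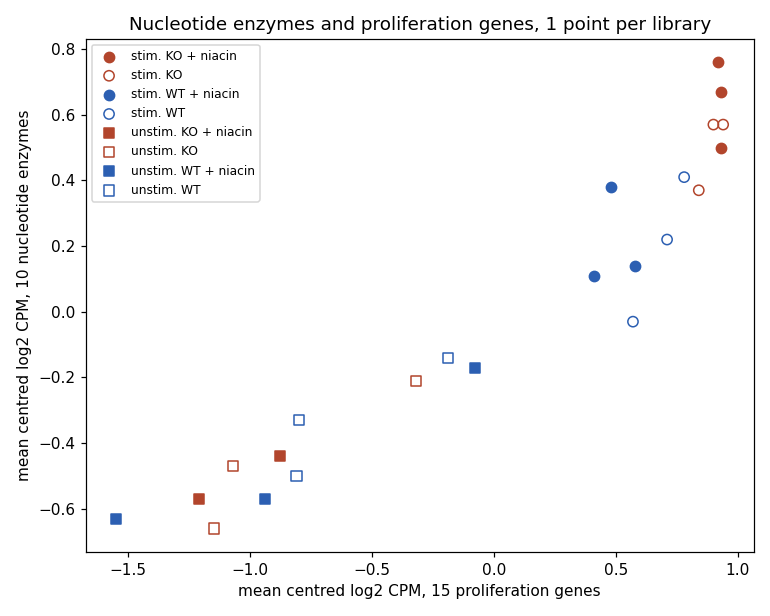
Mean centred log2 CPM of the 10 enzymes (y axis) against that of 15 proliferation genes (x axis), 1 point per library, with circles for stimulated and squares for unstimulated cells, filled with niacin, red for the knockout and blue for the wild-type label. Stimulated libraries stand at the upper right (r = 0.957 over all 23), with the knockout-labelled ones at 0.37 to 0.76 on the y axis.

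Among 9733 other genes at 5 CPM or more, the closest to the members' mean over the 23 libraries was Psmd7 (r = 0.991), a subunit of the proteasome's regulatory particle. Prelid3b and Sec13 followed (r = 0.985 each), then Ebna1bp2 and Nup85 (r = 0.984 each). With group means taken off they were Psmd7 (r = 0.963), Eftud2 (0.947), Hsd17b7 (0.94), Nup93 (0.931) and Prmt5 (0.93). All share the libraries and their depth with the members.

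Neighbouring steps of nucleotide metabolism were read from lists of known enzymes, by their average stimulation response, in which 35.3% of all genes were called higher and 40.8% lower. In the supply of PRPP, 1 of 4 genes was called higher (Prps1, 0.97 ± 0.10) and 1 lower (Prpsap2, -0.36 ± 0.08). On the branches from IMP to AMP and GMP and their kinases, 8 of 10 were called higher and none lower, with a median of 1.01. Ak4, a mitochondrial adenylate kinase, stood at group means of 64.3 to 76.3 CPM stimulated and 0.0356 to 0.364 CPM unstimulated. Of 8 tested genes for CTP synthesis and nucleotide kinases, 5 were called higher and 1 lower, the CTP synthase gene Ctps2 (-0.38 ± 0.12). Those called higher included Nme1 (1.11 ± 0.13) and another CTP synthase gene, Ctps (0.95 ± 0.14, edgeR adjusted p = 2.6e-06).

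For deoxynucleotides, 7 of 9 genes were called higher, led by Dut (1.76 ± 0.13), which removes dUTP, and Rrm1 (1.46 ± 0.15), a ribonucleotide reductase subunit. Those called lower were Rrm2b (-1.93 ± 0.17), the p53-inducible subunit, and Samhd1 (-0.90 ± 0.11), which breaks down dNTPs. Folate one-carbon enzymes, which supply formyl groups to Gart and Atic, gave 7 of 8 higher and 1 lower with a median of 1.96, led among the named genes by Mthfd1l (2.11 ± 0.06), Shmt1 (2.08 ± 0.16) and Mthfd2 (2.02 ± 0.11). Salvage enzymes were called at about the shares of all genes, with 4 of 11 higher, among them Uck2 (1.93 ± 0.09), Tk1 (1.84 ± 0.18) and Hprt (1.43 ± 0.13), and 3 lower, Tk2 (-1.05 ± 0.06), Uckl1 (-0.54 ± 0.09) and Dguok (-0.40 ± 0.07).

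Breakdown and interconversion gave 9 of 17 tested genes higher, among them Ada (1.14 ± 0.13), and 3 lower, among them Ampd3 (-1.25 ± 0.12) and the ectonucleotidase Nt5e (-0.47 ± 0.11). Of 5 tested nucleoside transporters 2 were higher, with Slc29a1 at 0.93 ± 0.11, and 2 lower, with the concentrative Slc28a2 at -1.54 ± 0.12, again near the shares of all genes. Of the transcription factors named with the pathway 8 of 8 were called higher, among them Atf4 (2.09 ± 0.07) and Myc (1.59 ± 0.11). For niacin averaged over the backgrounds, edgeR called 0.0178% of all genes higher and 0.136% lower. Of all these lists it called 1 gene, Cmpk2, a mitochondrial UMP-CMP kinase, at -0.87 ± 0.16 (adjusted p = 0.0157). It held 27 ± 7.17 with niacin and 41.8 ± 4.39 CPM without in stimulated knockout-labelled cells and 20.6 ± 3.85 and 36.7 ± 17.4 in stimulated wild-type-labelled cells. Unstimulated, it held 10.9 ± 0.453 and 23.5 ± 5.32 CPM in knockout-labelled and 15.3 ± 6.44 and 29.1 ± 3.15 CPM in wild-type-labelled cells (SD, n = 3 each, 2 for unstimulated knockout-labelled cells with niacin).

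**Figure D5:**
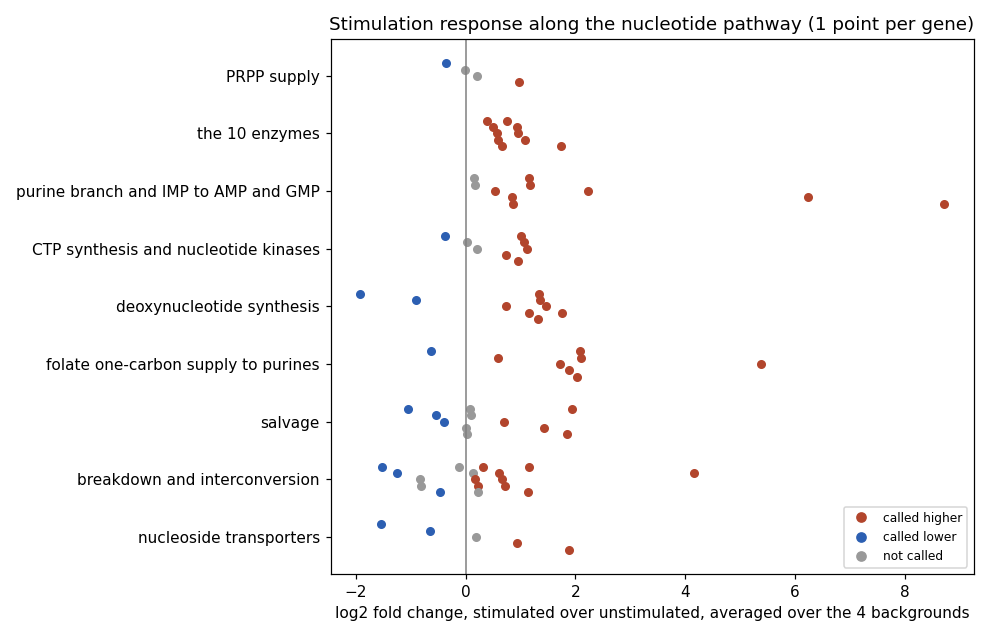
Average log2 fold change of stimulated over unstimulated cells (x axis) for each tested gene (points) of the 10 enzymes and 8 neighbouring lists (y axis), coloured by the edgeR call. The 10 enzymes lie between 0.38 and 1.74, all called higher. Every neighbouring list holds genes called lower as well as higher, except that of the branches from IMP to AMP and GMP, which holds none called lower.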

How the data were processed

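The authors deposited raw read counts per gene. The submitters' processing notes name Trimmomatic 0.38, STAR 2.7.0e and featureCounts 1.6.3, with the mouse builds GRCm38.p5 and mm10. Libraries were made with SMART-seq V4 amplification, per the labels' protocols. The sources used here do not give the strand setting or the annotation release. All 23 libraries entered 1 fit with a mean per group in edgeR 4.0.16 (quasi-likelihood F test, TMM factors, filterByExpr with minimum count 10, Benjamini-Hochberg over 16882 genes per comparison, threshold 0.05). Standard errors and 95% intervals come from the F statistic. Genes varied between libraries of a group with a common biological coefficient of variation of 27.4%, on 15 residual degrees of freedom, and the fit was tested on simulated data. Levels are CPM with TMM factors.

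Named beside the 10 enzymes are Hcar2, Impdh1, Ctps, Myc, up to 3 genes per list and direction with the largest called change at 5 CPM or more, and the 5 genes most like the members by each correlation (prior count 2). Members and lists were chosen with earlier results of these data known. Alternatives were DESeq2 1.42.0, voom (limma 3.58.1), RLE factors, no filter, the replicate number as a block, the compared groups alone, each library left out, 4 libraries found apart left out, and, chosen after seeing the data, 2 of those 4 left out. Near copies were sought with BLAST in GENCODE vM21 transcripts at 90% identity over 200 bases. Upstream sequences are RefSeq's (GRCm38.p6).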

Additional observations from a re-analysis of the deposited data

Results flagged for a closer look

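Paics pointed in opposite directions by genotype label in the unstimulated and the stimulated cultures with niacin. In unstimulated cells with niacin both knockout-labelled libraries (145 and 143 CPM) lay below all 3 wild-type-labelled ones (192, 148 and 147 CPM). The log2 fold change was -0.17. The 192 CPM was that of library 1, which the knockout-labelled group lacked, and the part of this was not tested. The share of all genes apart in that direction was not computed. In stimulated cells with niacin the knockout-labelled libraries (342, 375 and 354 CPM) lay above the wild-type-labelled ones (224, 281 and 308 CPM). The log2 fold change was 0.40, and 12.5% of all genes were apart in that direction. Neither difference was called (edgeR adjusted p = 1 and 0.293). In stimulated cells with niacin Paics was called higher by voom, at 0.43 (adjusted p = 0.01), where voom called 11.1% of all genes higher. EdgeR called it too when the third unstimulated knockout-labelled library without niacin was left out, at 0.40 (adjusted p = 0.043). The difference between both log2 fold changes within niacin was not tested. Averaged over niacin, the stimulation effect on Paics in knockout-labelled minus wild-type-labelled cells was 0.49 ± 0.21 (edgeR adjusted p = 0.222).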

How the results depend on the processing

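The average stimulation call held for all 10 members under every alternative tried, 300 of 300 values. Except for DESeq2 and voom, the share of all genes called under an alternative is not given here. The counts that follow can therefore not be read as particular to the members. Stimulation in wild-type-labelled cells with niacin called 3 members without the 4 libraries found apart, and 3 without the 2 of them in that group, a setting chosen after seeing the data. Both left 1 stimulated library there, assumed to vary like the other groups. With 1 library left out at a time, the stimulation calls ran from 8 to 10 (knockout label with niacin), 7 to 10 (knockout label), 6 to 8 (wild-type label with niacin) and 3 to 6 (wild-type label). The genotype call in stimulated cells with niacin (Ppat) became 3 members with DESeq2 (3.02% of all genes called higher) and 4 with voom (11.1%). It became 3 with no filter, 2 with the compared groups alone and 0 to 4 with 1 library left out. Without the 4 libraries, and without the 2, 1 stimulated wild-type-labelled library with niacin was left, and Ppat's value was 0.72. The difference in stimulation effect between the labels gave 3 members with DESeq2, 3 with no filter, 2 with voom and 0 to 3 with 1 library left out. Voom also called 1 member for niacin in stimulated wild-type-labelled cells, 1 for average niacin in stimulated cells and 2 for the average label difference. RLE factors moved 5 group means by more than their SD: Dhodh 40.1 CPM (unstimulated knockout label), Paics 147 and Adsl 137 (unstimulated knockout label with niacin), Paics 331 (stimulated knockout label) and Impdh2 194 (stimulated knockout label with niacin). The causes were not tested.

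The labels tie no number to a shared animal or day, and same-numbered libraries did not all deviate together. Of the same-numbered pairs from different groups, r was over 0.1 in 5 of 18 with both libraries stimulated (median 0.0365), in 8 of 15 with both unstimulated (median 0.241) and in 10 of 44 with 1 of each (median -0.00768). In all, 10 of 23 libraries were closest to their own number. With the replicate number as a block, Ppat's call was lost (adjusted p = 0.0696), leaving 0 members called there; the counts of members called in the other comparisons were unchanged.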

Other observations

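Unstimulated libraries numbered 1 held more of these transcripts than the others of their groups, a pattern noticed in the values. The members' mean centred log2 CPM was -0.17 in library 1 of the wild-type-labelled cells with niacin, against -0.57 and -0.63 in libraries 2 and 3. It was -0.21 in library 1 of the knockout-labelled cells without niacin, against -0.47 and -0.66, and -0.14 in library 1 of the wild-type-labelled cells without niacin, against -0.33 and -0.50. The mean of 15 proliferation genes was also highest in these libraries, at -0.08, -0.32 and -0.19, against -0.80 to -1.55 in the other 6 of these groups. Unstimulated knockout-labelled cells with niacin had no library 1, and their members' means were -0.57 and -0.44. What the missing library did to the stimulation, niacin and label comparisons with that group was not tested. No such pattern appeared in the stimulated groups, where library 1 had the lowest members' mean in each of the 4.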
